A study of Mus musculus with 6 samples.

Results

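The genes described here are 36 antioxidant genes of mouse macrophages: the transcription factor NRF2 (gene Nfe2l2) with its regulators, NRF2 target enzymes, and the enzymes of the glutathione, thioredoxin, peroxiredoxin, superoxide dismutase and catalase systems. They were chosen by name, with earlier results of these data known, and each of the 36 was found among the 16266 genes of the deposited tables. All 36 passed the filter on low counts, as did 12219 genes in all, although Sod3 passed through its KO libraries alone. The cells were bone marrow-derived macrophages, grown out of marrow in culture, and every sample received lipopolysaccharide (LPS, a bacterial cell wall component) for 24 h. RNA came from 3 samples labelled WT and 3 labelled KO. The design text names Capns1, the small subunit shared by calpains, as the deleted gene, whereas the genotype field of the KO samples reads CAPNS1-KO, CAPNS2-KO and CAPNS3-KO in turn. The title speaks of a deletion confined to myeloid cells, but the labels name no Cre line, strain, age or sex. Nor is it stated if the replicates are different mice or different dishes, so a p-value here speaks to sample-to-sample spread alone, and that spread may be technical.

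NRF2 is a transcription factor that KEAP1 binds in the cytosol and hands to a CUL3 ubiquitin ligase for degradation. When oxidants or electrophiles modify KEAP1, NRF2 accumulates, pairs with a small MAF protein such as MAFG and switches on genes that carry an antioxidant response element. BACH1 occupies the same elements as a repressor and is released from them by haem. In macrophages exposed to LPS, the products of these genes limit damage from the oxidants and nitric oxide that the cells make.

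Capns1 fell from 497 ± 22.3 CPM (the count scaled to the library total) in WT to 9.53 ± 0.405 in KO (SD, n = 3 each), in every KO library. Library totals ranged from 32631163 to 40913819 counts. WT replicate 3 and KO replicate 2 each lay far from their group along a principal component with 15.9% of the variance. They are also the libraries with the lowest and the highest share of counts in the 36 genes, at 0.825% and 1.13% (0.946 to 0.992% in the other 4). The 8 macrophage markers examined summed to 35311 to 42660 CPM in WT and 33629 to 38751 in KO, and 1 of them, Cd14, was lower in KO. Markers of fibroblasts and marrow stroma summed to 167 to 202 CPM in WT and 366 to 439 in KO, and 6 of 12 were higher in KO. Granulocyte precursor markers summed to 1109 to 1490 CPM in WT and 1043 to 1402 in KO, with 2 higher and 3 lower. In such bulk samples, fewer cells of a type and less RNA per cell cannot be told apart.

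NRF2 binds DNA at a core that reads TGACNNNGC, so the promoters of the genes were searched for it on both strands. RefSeq windows on GRCm38.p6, from 250 bases before to 50 after a transcript start, were at hand for 31 of the 36 genes. Hmox1, Gclc, Gsr, Prdx6 and Sod3 had none. The core was present in 8 of these 31 genes, in 1 window each, and in 8 of 40 windows (20%), against 12.4% of 32851 windows of all genes. Those 8 are shown first, with the core in capitals and 10 bases on either side. Each is printed along the gene, so capitals that start with GC are the core read on the opposite strand.
Nfe2l2, chr2:75704885-75704913, minus strand: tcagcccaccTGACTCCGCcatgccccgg
Mafg, chr11:120633751-120633779, minus strand: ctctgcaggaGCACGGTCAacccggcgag
Gclm, chr3:122245413-122245441, plus strand: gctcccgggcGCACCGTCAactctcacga
Mgst1, chr6:138140461-138140489, plus strand: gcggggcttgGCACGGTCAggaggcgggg
Txnrd1, chr10:82859104-82859132, plus strand: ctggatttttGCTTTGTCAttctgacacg
Srxn1, chr2:152105542-152105570, plus strand: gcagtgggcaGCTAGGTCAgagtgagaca
Prdx1, chr4:116685456-116685484, plus strand: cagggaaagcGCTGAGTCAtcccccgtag
Sod1, chr16:90220696-90220724, plus strand: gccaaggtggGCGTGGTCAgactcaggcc

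Positions are counted from the transcript start of each window, which for Gclm lies inside the gene bounds given with its values. In Prdx1 the core begins at base -133 and in Gclm at base -134. In Txnrd1 it lies in 1 of 3 alternative windows. Of the 8 genes with the core, Gclm alone passed the test of a difference between KO and WT described next. The 250 bases before the transcript start of its window are therefore shown beside those of Nqo1, which had a larger rise and no match in this window. A match is a sequence of letters, not a measured binding site, and a window without one says nothing of more distant elements.
Gclm, chr3:122245307-122245556, plus strand: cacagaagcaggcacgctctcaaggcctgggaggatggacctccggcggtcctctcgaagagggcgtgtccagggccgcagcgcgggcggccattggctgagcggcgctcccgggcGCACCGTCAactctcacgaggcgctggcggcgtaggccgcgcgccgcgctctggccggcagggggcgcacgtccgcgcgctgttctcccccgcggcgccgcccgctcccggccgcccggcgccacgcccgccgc
Nqo1, chr8:107403206-107403455, minus strand: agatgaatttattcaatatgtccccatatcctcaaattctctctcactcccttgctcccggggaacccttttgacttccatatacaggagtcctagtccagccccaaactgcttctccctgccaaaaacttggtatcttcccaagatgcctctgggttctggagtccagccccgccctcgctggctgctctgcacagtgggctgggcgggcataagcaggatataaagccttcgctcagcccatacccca

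Of the 36 genes, 8 rose in KO and 3 fell, by an adjusted p under 0.05 in edgeR's quasi-likelihood test over 12219 genes (termed called). The rises were Nqo1, Hmox1, Blvrb, Slc7a11, Gclm, Gstp1, Prdx2 and Sod3, and the falls Bach1, Gpx3 and Cat. Rises thus made up 22.2% of the list, against 8.44% of all tested genes, and falls 8.33%, against 6.21%, a share near that background. Since the list was chosen with earlier results of these data known, these shares are a description and test no excess. Sod3 is counted among the rises although its KO libraries alone brought it into the test. All KO libraries lay above all WT libraries for 15 of the 36 genes, against 18.2% of all tested genes. They lay below them for 7 of the 36, against 15.5% of all tested genes. The median log2 fold change, KO minus WT, was 0.17 over the 36 genes and -0.011 over all tested genes. Without KO replicate 2 the list's median was 0.12, and without both libraries that stood apart it was 0.065, with 9 genes called higher and 6 lower, where 13.7% and 12.3% of all genes tested were. That setting was added after the data were seen. Leaving out KO replicate 1 alone left 5 called rises, and leaving out WT replicate 1, WT replicate 3, KO replicate 1 or KO replicate 3 left 1 called fall. A two-sided exact permutation test of 3 against 3 cannot go below p = 0.1, the value that every gene with separate groups reached.

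**Figure D1:**
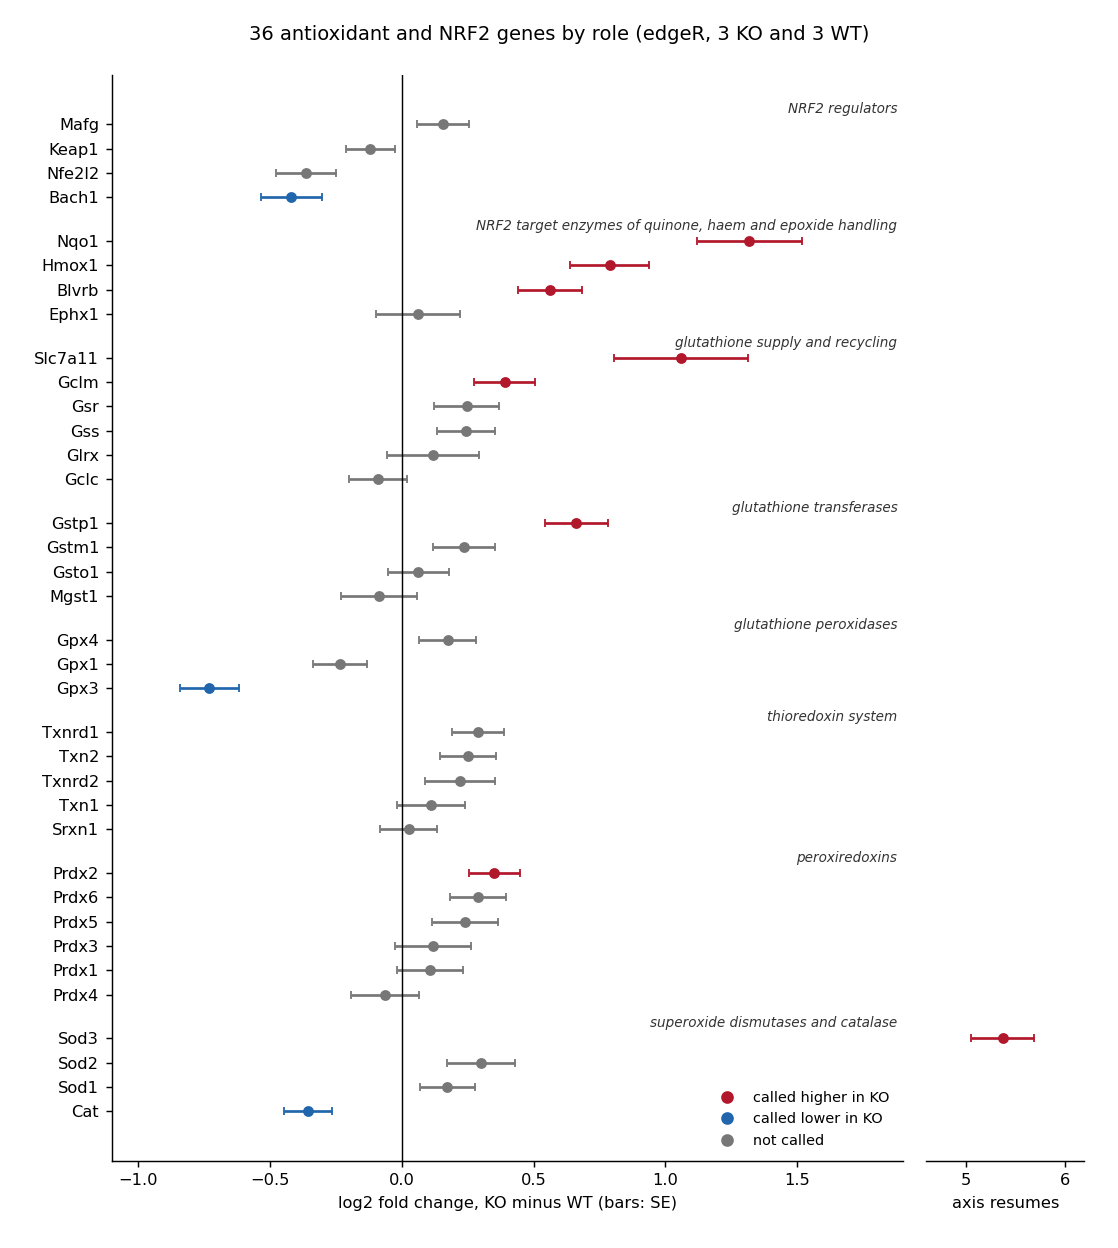
Log2 fold change (KO minus WT, horizontal axis, resumed at right for Sod3) with SE for each of the 36 genes, grouped by role, from edgeR on 3 KO and 3 WT libraries. Red marks the 8 called rises and blue the 3 called falls. The 5 genes of the thioredoxin system all lie between 0.026 and 0.29 and none was called, where 14.6% of all tested genes were.

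Among the regulators, the repressor Bach1 was lower in KO. Its CPM was 69.5, 68.3 and 84.8 in the WT libraries and 58.5, 51.5 and 59.4 in the KO libraries, so the groups did not overlap. The log2 fold change was -0.42 ± 0.11 SE (adjusted p = 0.0305), at chromosome 16, 87698954 to 87733346. This call was lost in 5 of the 6 fits that left out 1 library (all but that without WT replicate 2), where its adjusted p was as high as 0.109, and in the 3 fits on FPKM.

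Nfe2l2 itself was not called. It had 120, 132 and 143 CPM in WT and 117, 89.9 and 105 in KO, which gave -0.36 ± 0.12 (log2 fold change ± SE; adjusted p = 0.0558). The groups did not overlap, although the highest KO library lay just under the lowest WT library, and the gene passed the test in DESeq2 and with a replicate block. Keap1 stood at 111, 105 and 110 CPM in WT and at 99.8, 100 and 105 in KO (-0.12, adjusted p = 0.445). The partner Mafg had a log2 fold change of 0.16 (adjusted p = 0.333). For the factor and for its cytosolic inhibitor alike, each KO library lay under each WT library, as for 15.5% of all tested genes, and neither difference passed the test. For Keap1 the highest KO library (105.0 CPM) was barely under the lowest WT library (105.4 CPM).

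**Figure D2:**
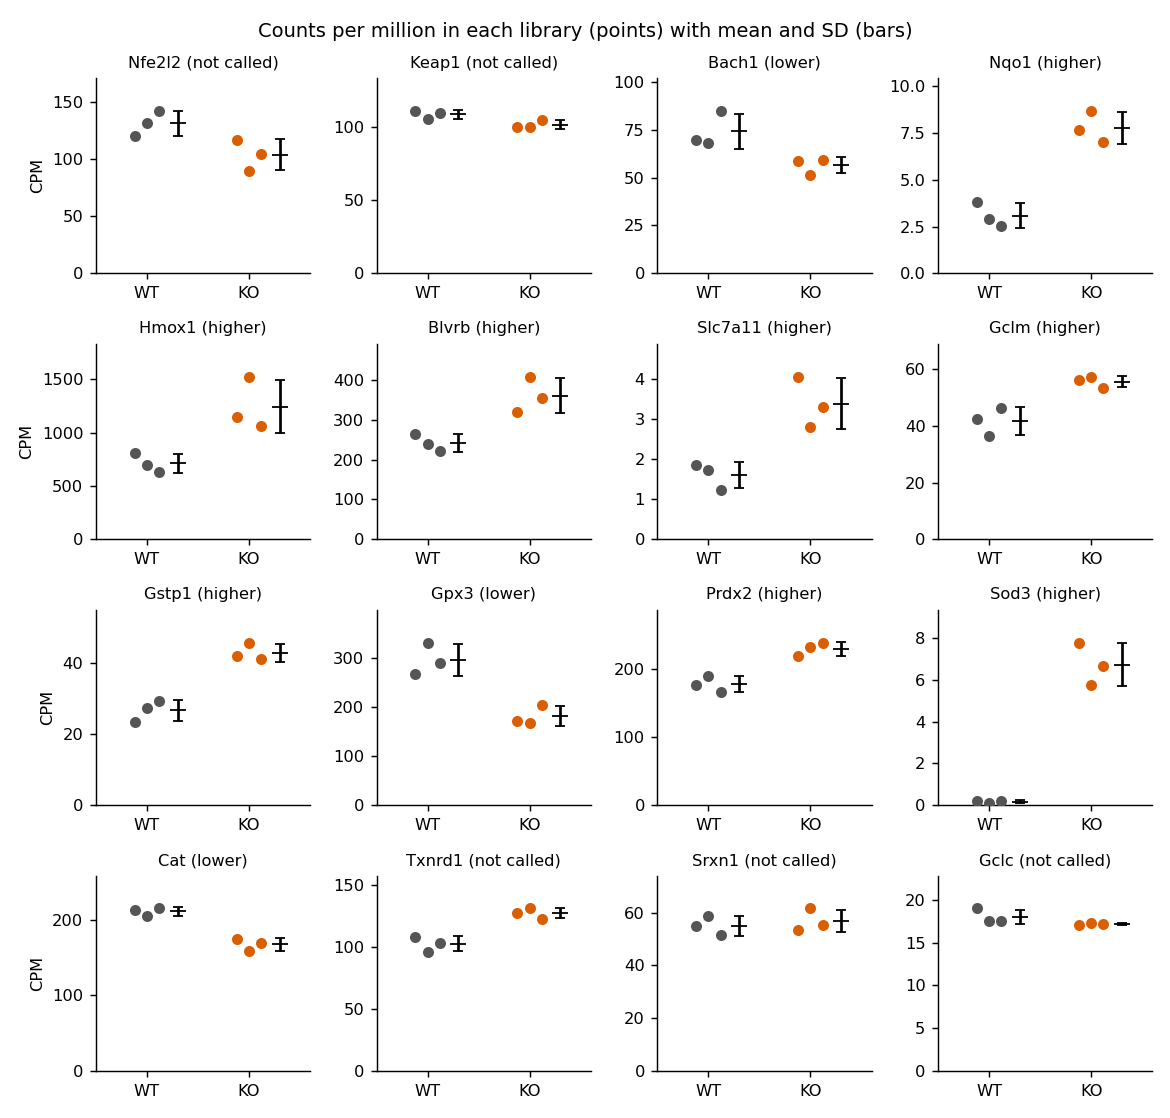
CPM in each library (points, vertical axes from 0) with the mean and SD (bars) for 16 genes: the 11 called genes, Nfe2l2, Keap1 and the NRF2 targets Txnrd1, Srxn1 and Gclc. For Nqo1 every KO library (7.02 to 8.68) lies above every WT library (2.52 to 3.83), whereas for Srxn1 the groups overlap.

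The NRF2 target enzymes of quinone and haem handling rose. Nqo1 (chromosome 8, 107388225 to 107403205), which reduces quinones without forming radicals, had 3.83, 2.90 and 2.52 CPM in WT and 7.64, 8.68 and 7.02 in KO. All KO libraries were higher, and the log2 fold change was 1.32 ± 0.20 SE (adjusted p = 0.00113), or 2.50-fold. The transcript was rare, with 103 to 133 counts in the WT libraries, and its log2 fold change on the log2(FPKM + 1) scale, which understates changes of low genes, was 0.92.

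Hmox1 (chromosome 8, 75093618 to 75100593) encodes haem oxygenase 1, which opens haem to biliverdin, carbon monoxide and iron. It was abundant, at 811, 693 and 629 CPM in WT and 1150, 1523 and 1059 in KO. The groups were separate, with KO replicate 2 the highest library and WT replicate 3 the lowest. The log2 fold change was 0.79 ± 0.15 SE (adjusted p = 0.00475), and 0.60 to 0.91 when any 1 library was left out. Its lowest value over all 19 alternative analyses was 0.515.

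Blvrb, a biliverdin and flavin reductase downstream of haem oxygenase, rose as well. Its CPM was 264, 239 and 221 in WT and 320, 408 and 355 in KO (log2 fold change 0.56 ± 0.12 SE, adjusted p = 0.00921). The gene lies on chromosome 7 at 27447978 to 27465981, 2.72 Mb from Capns1. Blvrb, like Prdx2 and Cat, is also abundant in red cells and their precursors. Of 10 erythroid markers, 8 stayed under 1 CPM in every library, and the list summed to 3.89 to 4.87 CPM in WT and 4.27 to 5.52 in KO. The part of such cells in these genes was not tested. The epoxide hydrolase Ephx1 (log2 fold change 0.061, adjusted p = 0.852) was not called. The calls of Nqo1, Hmox1 and Blvrb held in each of the 19 alternative analyses.

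In glutathione supply, the importer and 1 subunit of the synthesis enzyme rose. Slc7a11 (chromosome 3, 50364936 to 50499087), the light chain of the cystine importer, had 1.84, 1.74 and 1.22 CPM in WT and 4.06, 2.79 and 3.31 in KO. These are 50 to 69 counts in WT and 104 to 143 in KO, and the groups did not overlap. Its log2 fold change was 1.06 ± 0.25 SE (adjusted p = 0.0167), with 0.22 on the log2(FPKM + 1) scale and an adjusted p of 0.0783 without KO replicate 1. At 0.172 FPKM in WT and 0.363 in KO (counts per gene length and library total), it was the rarest of the 36 transcripts in KO.

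Glutamate-cysteine ligase, the rate-limiting enzyme of glutathione synthesis, has a modifier subunit, Gclm, and a catalytic subunit, Gclc. Gclm (chromosome 3, 122245487 to 122267215) had 42.4, 36.6 and 46.4 CPM in WT and 56.1, 57.4 and 53.4 in KO. Gclc had 19.0, 17.5 and 17.5 CPM in WT and 17.0, 17.3 and 17.2 in KO, each KO library under each WT library. Thus Gclm was higher in all KO libraries, by 0.39 ± 0.12 on the log2 scale (SE; adjusted p = 0.0428), whereas Gclc stood at -0.090 (adjusted p = 0.652). Whether the subunits differed from each other was not tested. The call of Gclm was lost in 5 of the 6 fits that left out 1 library (all but that without WT replicate 3), where its adjusted p was as high as 0.127. Glutathione synthetase Gss (0.24), glutathione reductase Gsr (0.25) and glutaredoxin Glrx (0.12) were not called (adjusted p = 0.171, 0.219 and 0.716).

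Among the glutathione transferases, which join glutathione to electrophiles, Gstp1 rose. It had 23.4, 27.2 and 29.4 CPM in WT and 41.9, 45.7 and 41.0 in KO, with no overlap. The log2 fold change was 0.66 ± 0.12 SE (adjusted p = 0.00347), at chromosome 19, 4035411 to 4037912. Gstp1 shares 38.3% of its 32-base words with its neighbour Gstp2, so reads could be divided between them, although Gstp2 was listed at only 0.121 CPM in WT and 0.151 in KO. Gstm1 (0.24, adjusted p = 0.215), which shares 28.2% of its words with related genes, Gsto1 (0.062, adjusted p = 0.783) and the microsomal Mgst1 (-0.085, adjusted p = 0.760) were not called.

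The glutathione peroxidases, selenoproteins that reduce hydrogen peroxide and lipid peroxides, had 1 called fall among 3 genes. Gpx3 (chromosome 11, 54902854 to 54910387), the form secreted into plasma, had 266, 331 and 289 CPM in WT and 172, 167 and 204 in KO. Every KO library was lower, and the log2 fold change was -0.73 ± 0.11 SE (adjusted p = 0.00134). This call held in each of the 19 alternative analyses. Gpx1, the cytosolic form and the most abundant transcript of the list in WT at 1578 ± 167 FPKM, had a log2 fold change of -0.23 (adjusted p = 0.165). Its KO libraries (at most 1353 CPM) all lay under its WT libraries (at least 1369 CPM). Of the 19 alternative analyses, only that without WT replicate 3 and KO replicate 2 called it lower (edgeR adjusted p = 0.0336). Gpx4, which reduces lipid peroxides in membranes, stood at 0.17 (adjusted p = 0.331) and shares 38.7% of its words with other genes, nearly all with a pseudogene.

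None of the 5 genes of the thioredoxin system was called in edgeR, where 14.6% of all tested genes were. All KO libraries lay above all WT libraries for 3 of the 5, Txn2, Txnrd1 and Txnrd2, as for 18.2% of all tested genes. For Txnrd2 the lowest KO library (17.06 CPM) was barely above the highest WT library (17.01 CPM). Txnrd1, the cytosolic thioredoxin reductase and an NRF2 target, had 108, 96.0 and 103 CPM in WT and 127, 131 and 122 in KO. KO libraries were thus higher throughout, by 0.29 ± 0.099 on the log2 scale (SE; adjusted p = 0.0742), and the gene was called in 7 of 19 alternative analyses, DESeq2 among them. Srxn1, the sulfiredoxin that repairs over-oxidised peroxiredoxins and a typical NRF2 target, had 54.7, 58.8 and 51.4 CPM in WT and 53.3, 61.6 and 55.5 in KO. Here the groups overlapped and the log2 fold change was 0.026 (adjusted p = 0.910). Cytosolic thioredoxin Txn1 stood at 0.11, and its mitochondrial counterparts Txn2 and Txnrd2 at 0.25 and 0.22 (adjusted p = 0.626, 0.147 and 0.309).

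Of the 6 peroxiredoxins, enzymes that reduce peroxides through a reactive cysteine, Prdx2 rose. It had 178, 190 and 167 CPM in WT and 220, 233 and 240 in KO (chromosome 8, 84969622 to 84974811). KO libraries were all higher, by 0.35 ± 0.096 on the log2 scale (SE; adjusted p = 0.0304). The call was lost in 5 of the 6 fits that left out 1 library (all but that without WT replicate 2), where its adjusted p was as high as 0.117, and Prdx2 shares 16.1% of its words with other genes. The others ranged from -0.063 for the endoplasmic reticulum form Prdx4 to 0.29 for Prdx6 (adjusted p = 0.0938). Prdx5 and Prdx1 were the most abundant transcripts of the list in WT after Gpx1, at 1146 ± 142 and 646 ± 103 FPKM (SD, n = 3). Their log2 fold changes were 0.24 and 0.11 (adjusted p = 0.239 and 0.640).

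The largest change of the list was that of Sod3, the superoxide dismutase secreted to the extracellular matrix (chromosome 5, 52363804 to 52369738). It had 7, 3 and 8 counts in the WT libraries and 274, 214 and 217 in the KO libraries. In CPM these were 0.202, 0.0757 and 0.196 against 7.78, 5.75 and 6.65, where 3 counts (an upper limit for a gene with 0 counts) correspond to 0.0733 to 0.0919 CPM. WT libraries thus lay near the counting floor, and the summed counts per total gave a ratio of 43.0, with an exact 95% interval of 27.0 to 72.9 that covers counting error only. The fitted log2 fold change was 5.37, and the difference on the log2(FPKM + 1) scale 1.99; since the KO libraries alone brought Sod3 into the test, these are given as a description, with no p. Even so, Sod3 reached 3.29 ± 0.497 FPKM in KO, under the 280 ± 21.0 FPKM of cytosolic Sod1 and the 256 ± 40.3 of mitochondrial Sod2. Of the 12 fibroblast and stroma markers given above, 6 were called higher in KO, among them Dcn (log2 fold change 1.78) and Pdgfra (1.91), while Col3a1 (0.27), Lum (0.38), Pdgfrb (0.95) and Fbln1 (0.89) were not called and overlapped between groups. Postn (0.68) was not called, and Thy1, under 1 CPM in every library, was not tested. The part of such cells in the level of Sod3 was not tested.

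Sod1 (0.17, adjusted p = 0.309) and Sod2 (0.30, adjusted p = 0.156) were not called, although all their KO libraries lay above all WT libraries. For Sod2 the lowest KO library (860 CPM) was barely above the highest WT library (858 CPM). Catalase, Cat, the peroxisomal enzyme that splits hydrogen peroxide (chromosome 2, 103453904 to 103485153), was lower in KO. It had 213, 204 and 215 CPM in WT and 175, 158 and 170 in KO, with little spread within either group. The log2 fold change was -0.36 ± 0.092 SE (adjusted p = 0.0233), but each of 4 single libraries was needed for the call (WT replicates 1 and 3, KO replicates 1 and 3), with an adjusted p as high as 0.0956 in their absence. The 4 genes grouped here as mitochondrial, a set that need not be complete, were Txn2, Txnrd2, Prdx3 and Sod2. They had log2 fold changes of 0.12 to 0.30, and none was called, where 14.6% of all tested genes were.

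**Figure D3:**
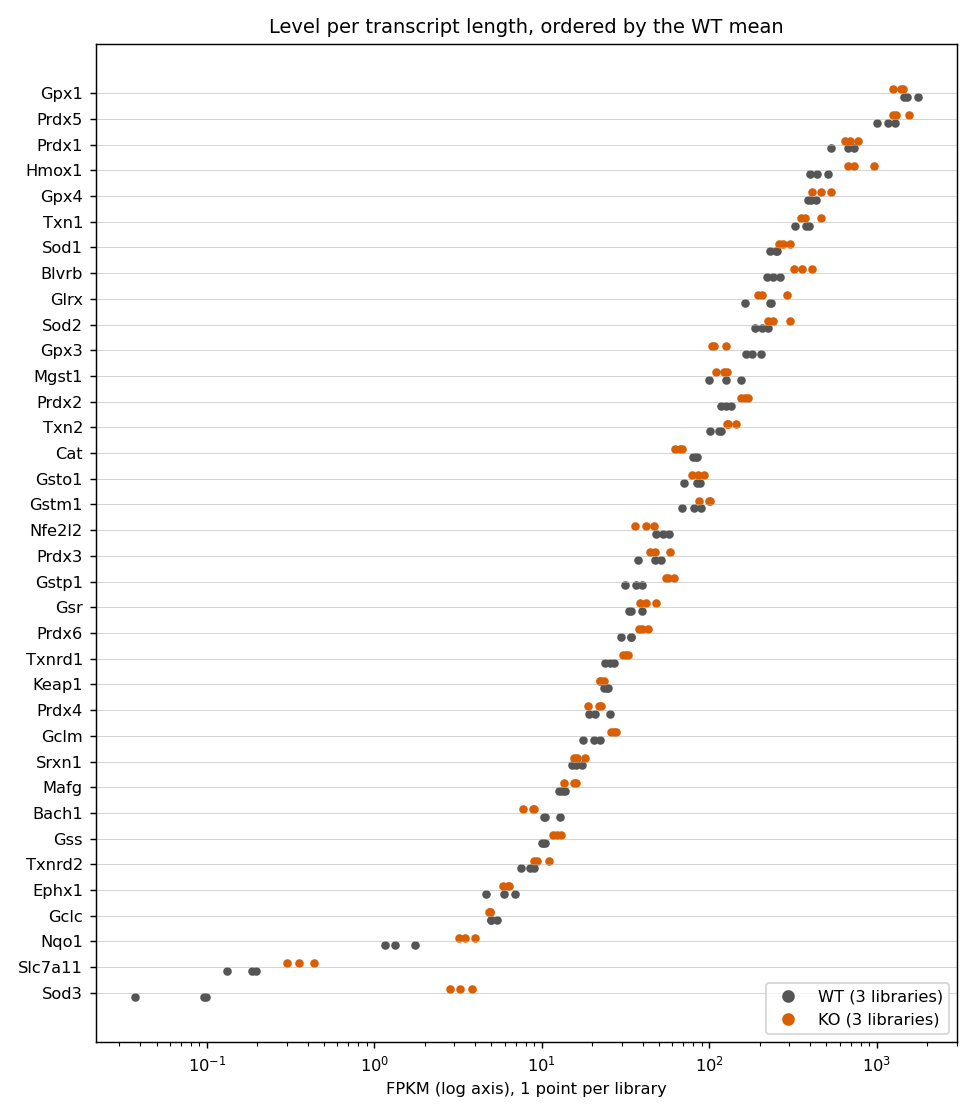
FPKM per library on a log axis (3 grey points for WT, 3 orange for KO) for the 36 genes, ordered by the WT mean. Levels run from 0.0771 FPKM for Sod3 to 1578 for Gpx1 in WT, where Nqo1, Slc7a11 and Sod3 are the 3 lowest.

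Per length, the order of the list was led in WT by Gpx1, Prdx5, Prdx1 and Hmox1 (451 ± 58.5 FPKM). In KO the means of Prdx5 (1371 ± 169) and Gpx1 (1361 ± 93.2) differed by less than their spread, followed by Hmox1 at 789 ± 156 and Prdx1 at 705 ± 62.9, which also lie within their spread of each other. The 3 rarest transcripts in WT were Nqo1 at 1.41 ± 0.309, Slc7a11 at 0.172 ± 0.0357 and Sod3 at 0.0771 ± 0.0347 FPKM. Catalytic Gclc (5.13 ± 0.245 FPKM) stood below Gclm (20.2 ± 2.38) in WT and likewise in KO (4.90 ± 0.0355 against 26.8 ± 0.972).

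**Figure D4:**
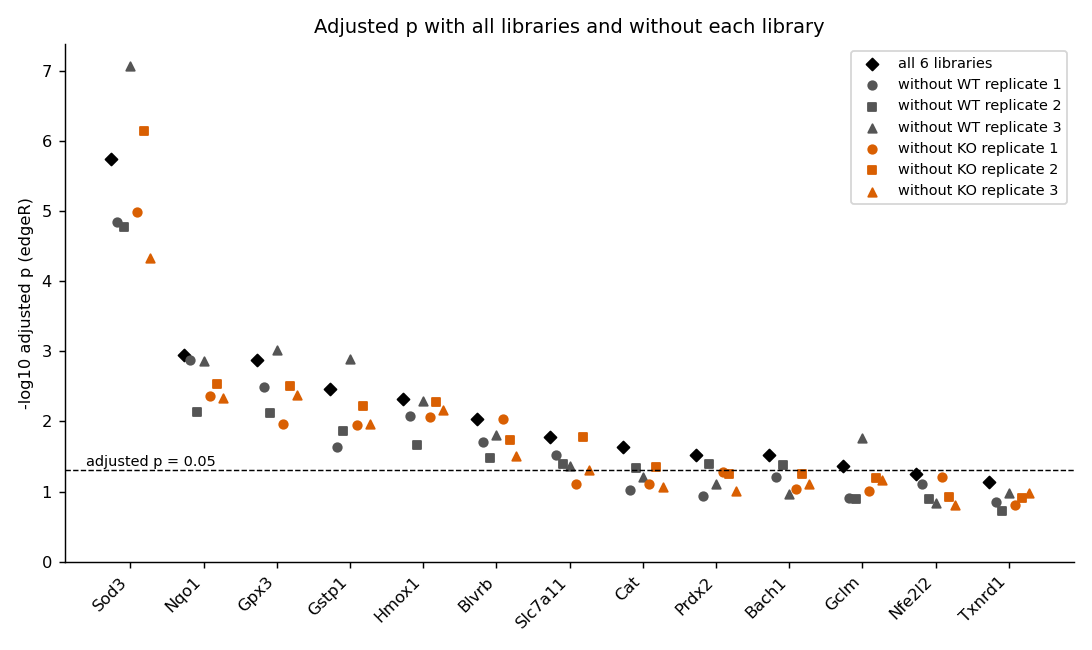
Minus log10 of the edgeR adjusted p (vertical axis) for the 11 called genes, Nfe2l2 and Txnrd1, with all 6 libraries (diamonds) and without each library in turn (grey for WT, orange for KO). Nqo1, Gpx3, Gstp1, Hmox1 and Blvrb stay above the dashed line at 0.05 in every fit, as does Sod3, which entered the test through its KO libraries alone, and the other 5 called genes fall under it in at least 1.

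Genes of the same pathways outside the list were read from 3 further lists of 90 genes, of which 88 were in the tables and 81 were tested. Of these 81, 13 rose and 8 fell (16.0% and 9.88%, against 8.44% and 6.21% of all tested genes), with a median log2 fold change of 0.038. These lists too were chosen with earlier results of these data known, so their shares are a description. Counts of these calls were 7 to 12 and 3 to 8 when 1 library was left out. Rises numbered 7 without WT replicate 2 and 8 without KO replicate 3, and falls 5, 4, 3 and 4 without WT replicate 1, WT replicate 2, KO replicate 1 and KO replicate 3.

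Among NRF2 partners and further targets, 6 of 33 tested genes rose and 3 fell (18.2% and 9.09%, against 8.44% and 6.21% of all tested genes). Among the rises were the exporters of glutathione conjugates Abcc1 and Abcc4, the NADPH-forming Me1, the carbonyl reductase Akr1b8 and the haem transporter Slc48a1 (0.40). Of the same functions, the NADPH-forming Idh1 (-0.42 ± 0.11 SE, adjusted p = 0.0234) and the carbonyl reductase Akr1a1 (-0.30 ± 0.088 SE, adjusted p = 0.0415) fell. Slc48a1, Idh1 and Akr1a1 were added after their values were seen. The call of Slc48a1 needed WT replicate 2 and KO replicate 1 (adjusted p as high as 0.0713 in their absence) and that of Idh1 needed WT replicate 2 and KO replicates 1 and 3 (as high as 0.0997). That of Akr1a1 was lost in 10 of 19 alternative analyses, among them 5 of the 6 that left out 1 library (all but that without KO replicate 2; as high as 0.192). Abcc1 had 79.6 ± 3.71 CPM in WT and 122 ± 9.63 in KO (SD, n = 3), a log2 difference of 0.60 with an SE of 0.10 (adjusted p = 0.00247). Akr1b8 (0.90), Me1 (0.69), Abcc4 (0.56) and the small MAF factor Maff (0.97) followed. On the log2(FPKM + 1) scale Me1, at 1.22 FPKM in WT, had 0.43 and Maff, at 0.489 FPKM, had 0.41. The calls of Abcc1 and Akr1b8 held without any 1 library, whereas those of Abcc4 and Maff needed each of WT replicates 1 and 2 and KO replicates 1 and 3 (adjusted p as high as 0.0693 and 0.0800 in their absence). That of Me1 needed WT replicate 2 and KO replicate 3 (as high as 0.0530). Unlike the inducible Hmox1, the constitutive haem oxygenase Hmox2 fell, from 211 ± 19.9 to 151 ± 17.8 CPM (log2 fold change -0.51 ± 0.12 SE, adjusted p = 0.0158). Of the words of Hmox2, 45.8% also occur in other genes, and its call needed each of WT replicates 1 and 2 and KO replicates 1 and 3 (adjusted p as high as 0.0873). The ferritin chains Ftl1 (0.19) and Fth1 (0.036), the biliverdin reductase Blvra (-0.051), the pentose phosphate enzymes G6pdx (-0.14), Pgd (0.047) and Taldo1 (0.060), the NRF2 targets Osgin1 (-0.12) and Sqstm1 (-0.032) and the ligase Cul3 (0.12) were not called (adjusted p = 0.187 to 0.865).

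The list of further glutathione genes had 25 in the test. Calls higher in KO numbered 4, or 16%, where the share over the whole test was 8.44%. Calls lower in KO numbered 2, or 8%, a share near the 6.21% of the whole test. Gstm2, a cytosolic transferase, stood at 2.11 ± 0.495 CPM in WT and 10.8 ± 1.65 in KO (SD, n = 3), a log2 difference of 2.34 with an SE of 0.21 (adjusted p = 3.29e-05). Gpx8, a peroxidase of the endoplasmic reticulum, had 1.10 ± 0.165 and 4.92 ± 0.879 CPM (log2 fold change 2.14 ± 0.24 SE, adjusted p = 1.65e-04). On the log2(FPKM + 1) scale they had 1.92 and 1.48. Of the 12 fibroblast and stroma markers, 6 were called higher in KO as well, and the part of such cells in these low-level transcripts was not tested. Gsta3 (1.37) and 5-oxoprolinase Oplah (0.93) rose too, but the call of Gsta3 needed replicate 2 of both groups (adjusted p as high as 0.0605 in their absence) and that of Oplah needed WT replicates 1 and 2 and KO replicates 2 and 3 (as high as 0.0834). Glo1, the glyoxalase that uses glutathione to clear methylglyoxal, fell from 72.5 ± 10.1 to 34.7 ± 4.20 CPM (log2 fold change -1.08 ± 0.13 SE, adjusted p = 3.09e-04). Gstt3 (-0.76) fell as well, a call that needed WT replicate 2 and KO replicate 1 (adjusted p as high as 0.0706 in their absence).

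In the list of further thioredoxin, glutaredoxin and repair genes, 3 of 23 tested genes rose and 3 fell (13.0% each, against 8.44% and 6.21% of all tested genes). The metallothioneins, small metal-binding proteins that also scavenge oxidants, rose: Mt2 from 34.1 ± 6.32 to 88.9 ± 5.99 CPM (log2 fold change 1.36 ± 0.13 SE, adjusted p = 6.05e-05) and Mt1 from 93.7 ± 14.6 to 141 ± 5.06 (0.56 ± 0.12 SE, adjusted p = 0.00834). Mt2 shares 57.3% of its words with other genes. Nnt, the mitochondrial transhydrogenase that makes NADPH for glutathione and thioredoxin reduction, fell from 53.1 ± 10.0 to 22.1 ± 1.78 CPM (log2 fold change -1.28 ± 0.15 SE, adjusted p = 1.86e-04). Sesn1 (-0.60) and the thioredoxin inhibitor Txnip (-0.57) also fell, the call of Sesn1 needing WT replicate 1 and KO replicates 1 and 3 (as high as 0.0652 in their absence). The methionine sulfoxide reductase Msrb3 (1.44), at 0.551 ± 0.287 CPM in WT, was called at adjusted p = 0.0483 and needed each of WT replicates 1 and 3 and KO replicates 1 and 3 (as high as 0.167 in their absence). It had 9, 33 and 23 counts in WT and 58, 39 and 63 in KO. Its WT libraries alone would not have brought it past the filter on low counts.

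**Figure D5:**
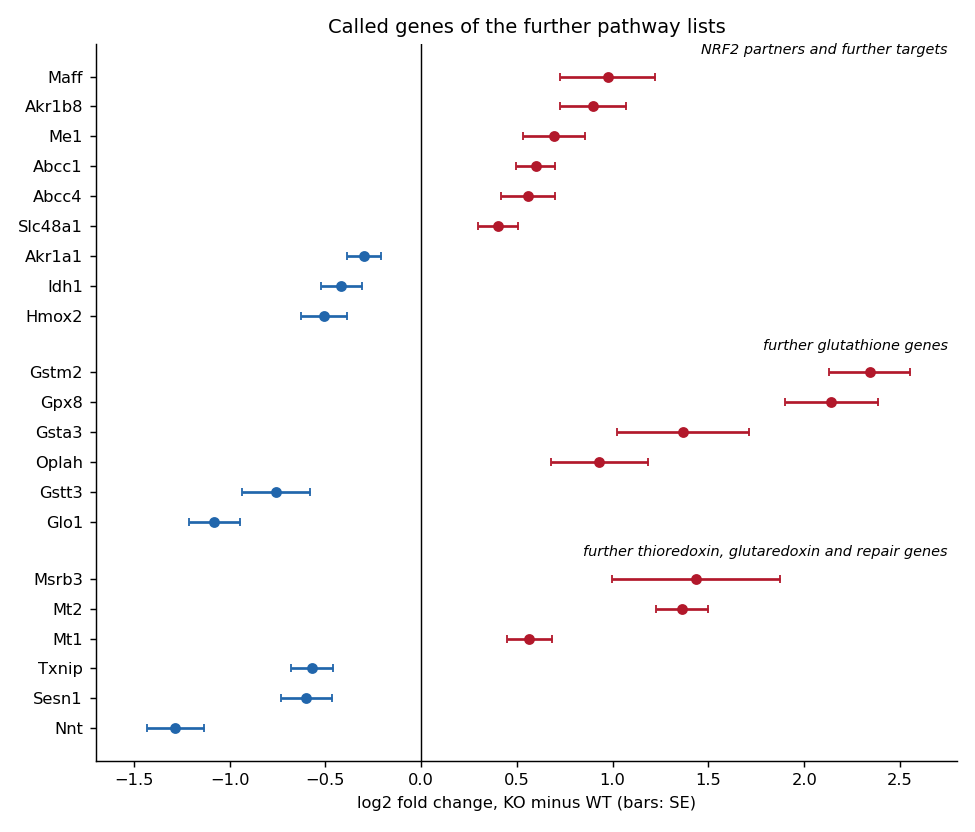
Log2 fold change (KO minus WT) with SE for the 21 called genes of the 3 further pathway lists, from the same fit, with rises in red and falls in blue. Gstm2 (2.34) and Gpx8 (2.14) have the largest rises and Nnt (-1.28) and Glo1 (-1.08) the largest falls.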

How the data were processed

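RNA was measured in 3 WT and 3 KO samples, grouped by their titles. The authors deposited read counts per gene and FPKM values per gene. Per the submitters' processing notes, the tools were HISAT2, HTSeq and fastp, with build mm10; their versions, and whether counting used strand, were not given there. Where a gene had at least 10 counts, 99.99% of deposited FPKM values lay within 1% of those computed from the count, the gene length and the column total. Totals were 32631163 to 40913819 per sample. The test was edgeR 4.0.16 (R 4.3.3), by its quasi-likelihood F test after filterByExpr and TMM, with Benjamini-Hochberg adjustment over 12219 genes, a procedure tested on simulated data. The SE is the size of the log2 fold change divided by the square root of F. CPM use the column total. Replicate libraries differed by more than sampling noise.

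The members and lists were chosen with earlier results of these data known. Values per library are given for called members and for Nfe2l2, Keap1, Nqo1, Hmox1, Slc7a11, Gclc, Gclm, Txnrd1 and Srxn1, and other members by log2 fold change, with values per library of Sod2 and Glrx added after they were seen. From the further lists up to 6 called genes each were named by smallest adjusted p; Slc48a1, Idh1, Akr1a1 and uncalled ones named were chosen after their values were seen. RefSeq (GRCm38.p6, the mm10 assembly) gave positions and promoters. Of 40 promoter windows, 38 carried the first 20 transcribed bases near a GENCODE transcript start. Shared words are 32-base words of a gene's transcripts found in another gene's, on either strand. Marker lists of erythroid, dendritic, mast, lymphoid and endothelial cells had 0, 0, 0, 0 and 0 genes higher and 0, 0, 0, 1 and 1 lower. Only 3, 2, 3, 2 and 4 genes of these lists, in turn, passed the filter and were tested. Alternatives were other scalings, DESeq2 1.42.0, limma 3.58.1 (voom, and trend on log2(FPKM + 1) or log2(FPKM + 0.1)), other filters, a replicate block and leaving out libraries.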

Additional observations from a re-analysis of the deposited data

How the results depend on the processing

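Of 19 alternative analyses, 1 (without WT replicate 3 and KO replicate 2 together) was added after the data were seen. The calls of Nqo1, Hmox1, Blvrb, Gstp1 and Gpx3 held in each. That of Sod3 did too, but its KO libraries alone brought it into the test, so this is a description only. Members called higher in KO numbered 5 to 7 with 1 library left out (8 with all) and 8 to 11 with other settings, with 10 with a replicate block in edgeR and 11 in DESeq2. Members called lower numbered 1 to 3 with 1 library left out (3 with all), 2 on FPKM, 4 with either block, and 6 without both libraries that stood apart. With 1 library left out, the genes of the further lists called higher numbered 7 to 12 (13 with all) and those called lower 3 to 8 (8 with all). With other settings they numbered 10 to 15 and 7 to 9, except that those called lower numbered 13 without both libraries that stood apart. Same-numbered WT and KO libraries had correlations of -0.098, 0.23 and 0.18 in their deviations from the group means, so the number was not taken to pair them, and not every library correlated best with its own number. Counts over all genes went from 1031 higher and 759 lower to 1362 and 1164 with the block, and to 704 to 1039 and 359 to 742 with 1 library left out, and to 1681 and 1505 without both libraries that stood apart. Over the members, 625 of 683 values kept their direction and call, 23 lost a call, 16 gained one and 19 changed sign, all of the last in genes not called with all libraries. The sign changed for Glrx (-0.25, adjusted p = 0.0451), Gsto1 (-0.11), Txn1 (-0.12), Srxn1 (-0.10), Prdx1 (-0.11) and Prdx3 (-0.15) without both libraries that stood apart. With 1 library left out, the ranges that cross 0 were -0.076 to 0.21 for Ephx1, -0.10 to 0.25 for Glrx, -0.015 to 0.14 for Gsto1, -0.22 to 0.090 for Mgst1, -0.033 to 0.21 for Txn1, -0.051 to 0.092 for Srxn1, -0.0030 to 0.22 for Prdx1, -0.026 to 0.22 for Prdx3 and -0.14 to 0.077 for Prdx4. The causes were not tested. Fewer samples were tested in the fits without a library. Slc7a11 gave no value with FPKM of at least 1 in 3 samples, where it was filtered out. Depth limits Sod3 and Slc7a11 most, with 3 to 8 and 50 to 69 counts in WT.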

Other observations

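Several antioxidant transcripts were highest in KO replicate 2 and lowest in WT replicate 3, the libraries that stood apart from their groups. Hmox1 stood at 1523 CPM in KO replicate 2 against 1150 and 1059 in the other KO libraries, and at 629 CPM in WT replicate 3 against 811 and 693 in the other WT libraries. Sod2 followed the same order, with 1154 CPM against 924 and 860 in KO, and 715 against 858 and 785 in WT, as did Glrx (384 against 272 and 258, and 218 against 308 and 307). Glrx, the glutaredoxin that removes glutathione from proteins, is the one member whose sign changed with a call, as lower in KO, when both were left out. Nfe2l2 had the opposite order, with its lowest level in KO replicate 2 (89.9 CPM) and its highest in WT replicate 3 (143 CPM).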
